A study of Mus musculus with 19 samples.

Results

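Some annotated long noncoding RNAs (lncRNAs) carry short reading frames that ribosomes occupy, and the transcript type lncRNA is also given to processed isoforms of protein-coding genes for which no coding sequence is annotated. Of the 21663 unique open reading frames (ORFs) listed as translated in mouse lung organoids, 1258 (5.81%) lay on such transcripts. They were taken by 3 criteria: the authors' class for an ORF on a transcript without an annotated coding sequence was its only class in every list, at least one of its transcripts was of type lncRNA, and none was of the retained-intron type. They came from 964 genes and 1250 lncRNA-type transcripts. The name of the class holds for the transcripts rather than for the genes. Of the 1258 ORFs, 1158 (92.1%) lay in 890 protein-coding genes and 100 in 74 genes of other types, which were lncRNA genes for 97 ORFs and pseudogenes for 3.

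The series compared LUAD organoids, grown from mouse lung adenocarcinoma, with AT2 organoids, grown from alveolar type 2 cells, which make surfactant and renew the alveolar epithelium. All 19 samples were of strain C57BL/6, had been plated for 48 hours, and received 100 µM cycloheximide, a blocker of translation elongation, for 5 minutes before harvest. There were 3 LUAD and 2 AT2 ORF lists, 4 LUAD and 3 AT2 footprint libraries, and 4 LUAD and 3 AT2 RNA libraries. Footprints, the RNA fragments that ribosomes protect, were collected with RiboLace, which pulls down translating ribosomes. The LUAD ORF lists are titled KP, which the labels do not explain. Per the design text the tumour-derived organoids were 3 independent ones and the AT2 cultures 2, which is fewer than the libraries of each assay, so some libraries may share a culture and the p-values below may measure technical spread. The labels used here do not state the genotype or age of the animals.

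The libraries differed in depth and in the markers of their tissue. Footprint libraries held 4.80 to 14.2 M (mega) estimated counts in LUAD and 3.03 to 3.83 M in AT2, and RNA libraries held 27.2 to 33.2 M counts in LUAD and 4.12 to 10.2 M counts in AT2. Marker levels are given in CPM, here counts per 1 M of the library's total. The 7 AT2 markers that could be paired with transcripts, of 11 listed, were summed. Together they had 219.6 to 329 CPM of footprints in LUAD and 1085 to 1122 CPM in AT2. Nkx2-1, which encodes the lung lineage transcription factor, had 0 to 0.439 CPM of footprints in LUAD and 48.5 to 147 CPM in AT2, and Sftpb, a surfactant protein gene, had 0 CPM in LUAD and 11.1 to 34.3 CPM in AT2. Etv5, a transcription factor gene of the same list, had 11.7 to 19.9 CPM in LUAD and 4.29 to 13.0 CPM in AT2, and Slc34a2 had 0 CPM in LUAD and 0 to 1.37 CPM in AT2. Trp53, the tumour suppressor gene, had 0 to 1.46 CPM of footprints in LUAD and 30.7 to 82.9 CPM in AT2. The 2 paired leukocyte markers of 6, Cd14 and Mrc1, summed to 64.0 to 75.4 CPM in LUAD and 3.44 to 6.09 CPM in AT2. The 3 paired markers of 5 of alveolar type 1 cells, the flat cells of the alveolus, summed to 0.865 to 6.30 CPM in LUAD and 329.7 to 466 CPM in AT2. The part of these differences in the results below was not tested. AT2 footprint library 1 and AT2 RNA library 3 stood apart from the other AT2 libraries of their assay, and LUAD libraries 1 and 2 stood apart from libraries 3 and 4 in both assays. From this spread 2 library sets were drawn: set 1 held LUAD libraries 1 and 2, AT2 footprint library 1 and AT2 RNA libraries 1 and 2, and set 2 held the rest.

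A ribosome that scans a messenger RNA usually starts at an AUG codon and does so more readily when a purine stands 3 bases before it and a G directly after it, the Kozak context. Start sites of 68 of the ORFs lay in the RefSeq promoter windows that could be read, at 59 distinct positions, and all 59 were ATG in the genome. The examples below are shown because they differ in how the start relates to the annotated protein. Each gives 30 bases of GRCm38.p6 (mm10), with the start codon in capitals. The first 3 lie in Cct6a (a chaperonin subunit), Lcn2 (lipocalin 2) and Atp5b (the beta subunit of ATP synthase), where the ORF began at the start codon of the annotated protein. The next pair, in Mmadhc (vitamin B12 trafficking) and Smdt1 (a subunit of the mitochondrial calcium channel), began at codons that no listed annotated ORF uses. The last 3 lie in genes of other types.
Cct6a, chr5:129787429-129787458, plus strand: taggccagccATGgcggcggtaaagaccct
Lcn2, chr2:32387698-32387727, minus strand: tgtggaaaccATGgccctgagtgtcatgtg
Atp5b, chr10:128083317-128083346, plus strand: ggattccgccATGttgagtcttgtggggcg
Mmadhc, chr2:50296617-50296646, minus strand: actggtacggATGgttcccacccgcggtct
Smdt1, chr15:82341057-82341086, plus strand: tccctccaatATGcgagccgaggcgacttt
F730043M19Rik, chr12:33147485-33147514, minus strand: tcgcgccaggATGctgcgccccgccgccct
0610040F04Rik, chr6:108660895-108660924, minus strand: gatccgttccATGatgcggcgagcaggggc
Gm16163, chr8:124862961-124862990, plus strand: ctccgccgccATGggaatcagcacggagac

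Of the 59 start sites, 53 (89.8%) had A or G at position -3, counted with the A of ATG as 1, against 725 of 887 starts of annotated ORFs in the same windows (81.7%). A G followed the codon at 40 of the 59 (67.8%), against 64.5% of the annotated starts. Of the 59 sites, 44 were themselves starts of an annotated ORF. The purine stood at 41 of these 44 and at 12 of the 15 that were not. In the examples, the Mmadhc site had C and the 0610040F04Rik site had T at position -3. The ORFs behind these sites differed in support. Support is counted in P-sites, the footprint positions assigned to the ribosome's peptidyl site, and those in the ORF's own frame are called in frame. The Cct6a ORF of 412 codons had 684 in-frame P-sites in LUAD list 1 and 166 in LUAD list 3, and the Lcn2 ORF of 221 codons had 488 and 146 in LUAD lists 1 and 2. Neither was in an AT2 list. The Smdt1 ORF of 42 codons was in AT2 list 1 alone, with 20 in-frame P-sites.

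The ORFs on lncRNA-type transcripts made up a similar share of every list. LUAD lists 1, 2 and 3 held 738, 387 and 278 of them, and AT2 lists 1 and 2 held 146 and 194. The lists themselves differed widely in size, with 13380, 8122 and 5372 ORFs in LUAD and 2597 and 4426 in AT2, and so did the in-frame P-sites behind them, which numbered 2171809, 366220 and 275292 in LUAD and 51305 and 127165 in AT2. As a share of the list, the class took 5.52%, 4.76% and 5.17% of ORFs in LUAD and 5.62% and 4.38% in AT2. It took 3.21%, 3.21% and 3.47% of in-frame P-sites in LUAD and 3.66% and 3.10% in AT2. The 2 tissues overlapped in both shares.

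With 3 lists against 2 an exact two-sided permutation test cannot go below p = 0.2. The number per list averaged 468 ± 240.4 in LUAD and 170 ± 33.9 in AT2 (SD, n = 3 and 2), a difference of 298 with an exact p = 0.2, and every LUAD list held more than either AT2 list. Without LUAD list 1 the difference was 162.5. The share of ORFs averaged 5.15 ± 0.376% in LUAD and 5.00 ± 0.876% in AT2 (exact p = 1), and the share of P-sites averaged 3.30 ± 0.153% in LUAD and 3.38 ± 0.399% in AT2 (exact p = 0.8). The list with the most P-sites held the most ORFs of the class, and list depth moved with the tissue.

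**Figure D1:**
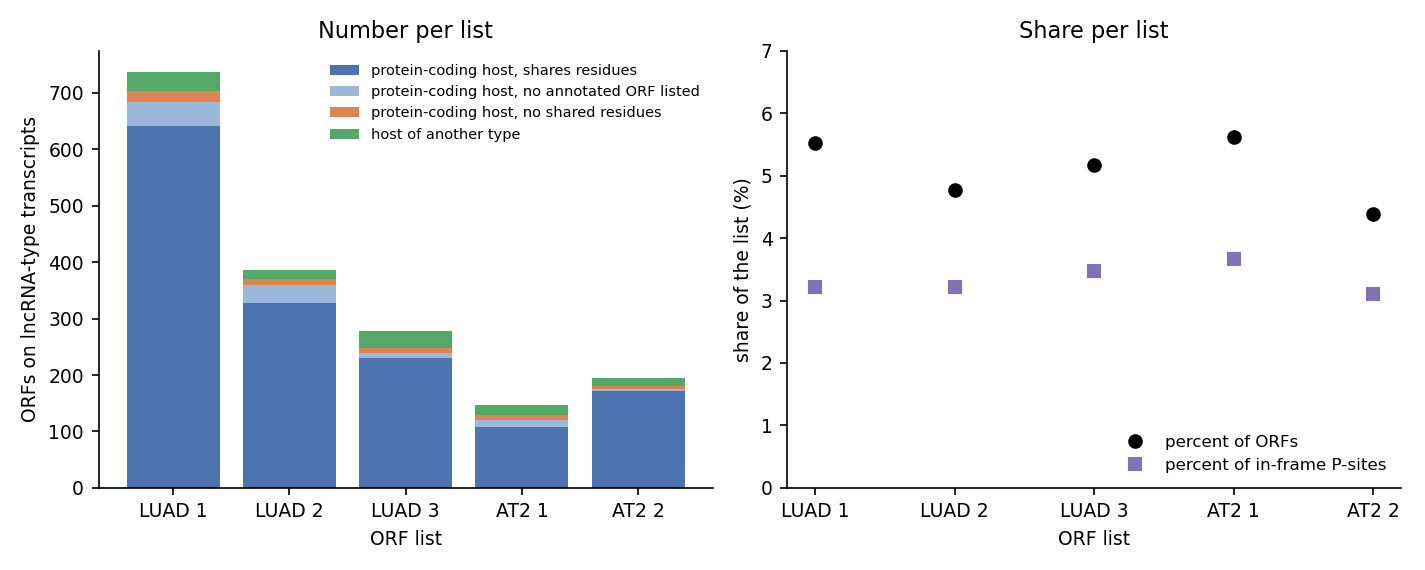
ORFs on lncRNA-type transcripts in each ORF list, LUAD lists left of AT2 lists. The left panel stacks their number by host gene and by whether they share residues with the annotated protein, from 146 in AT2 list 1 to 738 in LUAD list 1, and the right panel gives them as a percent of all ORFs (circles, 4.38% to 5.62%) and of all in-frame P-sites (squares, 3.10% to 3.66%) of the list.

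Most ORFs in protein-coding genes read out a piece of the known protein. An annotated ORF of the host gene was listed for 1070 of the 1158, and 1020 of these (95.3%) shared at least 12 consecutive residues with it. A stretch of 8 or 20 residues in place of 12 gave 1021 and 1010 ORFs. The median sharing ORF had 96.8% of its residues in such stretches, 324 had all of them, and 21 had under 50%. By position, 431 of the 1158 began at the annotated start and ended elsewhere, 377 ended at the annotated stop and began elsewhere, and 10 did both. Another 205 shared residues with neither end in common. ORFs on retained-intron transcripts of protein-coding genes shared residues about as often, at 3533 of 3678 (96.1%). Over the 5 lists the percent that shared averaged 95.8 ± 2.43 for lncRNA-type ORFs and 96.2 ± 2.62 for retained-intron ORFs, with an exact paired sign-flip p = 0.3125, and the smallest p that 5 lists allow is 0.0625.

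The sharing ORFs also held most of the P-sites listed for the class. They had 93.3% of its in-frame P-sites, while the 50 that did not share had 1.10%, the 88 whose host had no annotated ORF listed had 2.44%, and the 100 in genes of other types had 3.12%. Whether the P-sites of a sharing ORF came from the lncRNA-type transcript or from the gene's annotated messenger RNA was not tested. Of the sharing ORFs, 361 (35.4%) were in 2 or more lists. The same held for 3 of the 50 that did not share (6.0%), for 9 of the 88 with no annotated ORF to compare (10.2%) and for 8 of the 100 in other genes (8.0%). Median in-frame P-sites per ORF, summed over lists, were 33 for the sharing ORFs, 14.5 for those that did not share, 18 where no annotated ORF was listed and 13.5 in other genes. No ORF was in all 5 lists and 12 were in 4 lists, in Actb, Krt19, Tkt, Tpm1, Hspa4, Rack1, Gnas, Hadha, Vdac1, Psmb1, Plin2 and the lncRNA gene Gm42743. All of these except Gm42743 shared residues with the protein of their own gene.

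Length followed the same division. Median lengths were 165 codons for ORFs that shared residues, 140 where the host had no annotated ORF listed, 74 for those that did not share and 70.5 for those in genes of other types. ORFs of up to 100 codons were 318 of the 1158 in protein-coding genes (27.5%) and 67 of the 100 in other genes. Averaged over the 5 lists, the median length was 174 ± 25.7 codons for the ORFs in protein-coding genes and 494 ± 23.6 codons for annotated ORFs, and it was lower in 5 of 5 lists (exact paired sign-flip p = 0.0625, adjusted 0.1 over 8 comparisons). ORFs in other genes averaged 83.7 ± 23.3 codons, also lower than those in protein-coding genes in 5 of 5 lists (exact p = 0.0625, adjusted 0.1). Those in protein-coding genes did not differ beyond the spread from retained-intron ORFs, which averaged 181 ± 11.7 codons (exact p = 0.3125). The design allows no smaller p than 0.0625 for any of these.

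**Figure D2:**
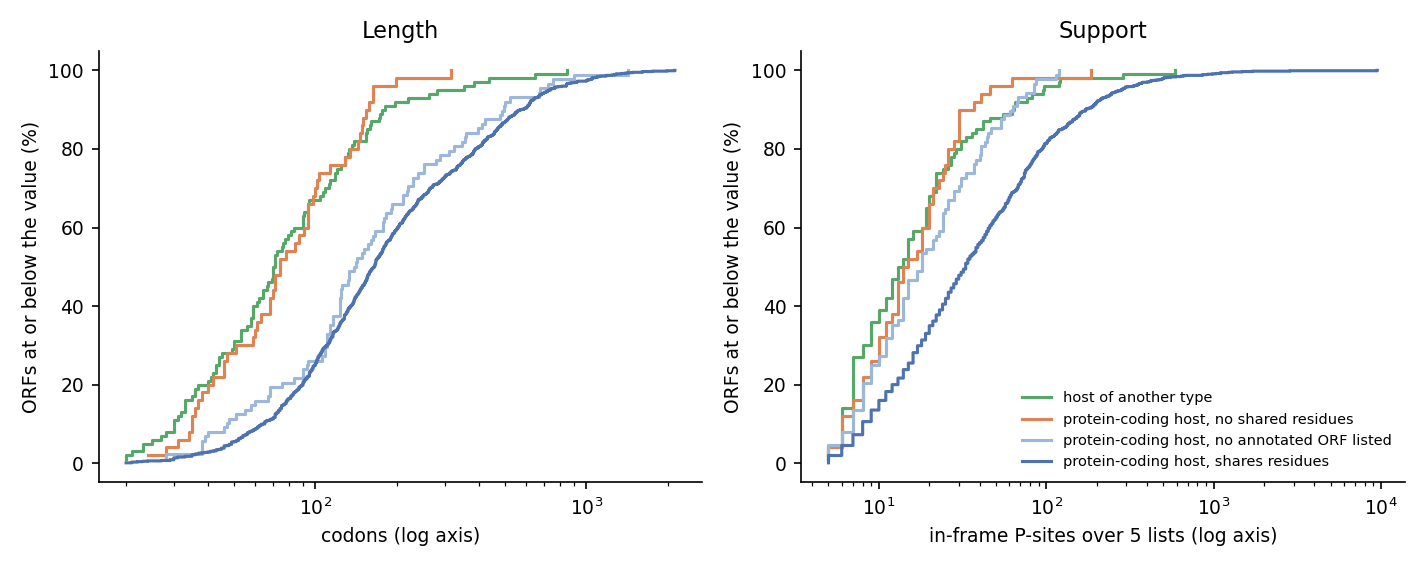
Cumulative distributions of ORF length in codons (left, log axis) and of in-frame P-sites summed over the 5 lists (right, log axis), 1 line per group of ORFs. ORFs in genes of other types and those that do not share residues run together at medians of 70.5 and 74 codons, left of those that share residues at 165 codons.

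Of all P-sites on ORFs in protein-coding genes, 53.0%, 52.0% and 47.2% were in frame in LUAD lists 1, 2 and 3, and 55.6% and 51.6% in AT2 lists 1 and 2. On ORFs in other genes the values were 56.0%, 52.4% and 56.8% in LUAD and 57.0% and 54.8% in AT2. Annotated ORFs had 47.8%, 46.8% and 44.0% in LUAD and 46.4% and 47.4% in AT2. Both classes were higher than annotated ORFs in 5 of 5 lists, at 51.9 ± 3.06% and 55.4 ± 1.88% on average against 46.5 ± 1.47% (exact paired sign-flip p = 0.0625 each, adjusted 0.1). Retained-intron ORFs had 52.4%, 50.8% and 48.0% in LUAD and 52.7% and 51.7% in AT2, also above annotated ORFs in all 5 lists. The lists hold ORFs with a combined p-value of up to 0.05, which may itself rest on the frame of the P-sites, and some listed ORFs had more P-sites in another frame. The median ORF in a protein-coding gene had 19.8 ± 15.9 in-frame P-sites per list, against 38.0 ± 36.4 for the median annotated ORF, and it was lower in 5 of 5 lists (exact p = 0.0625, adjusted 0.1).

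**Figure D3:**
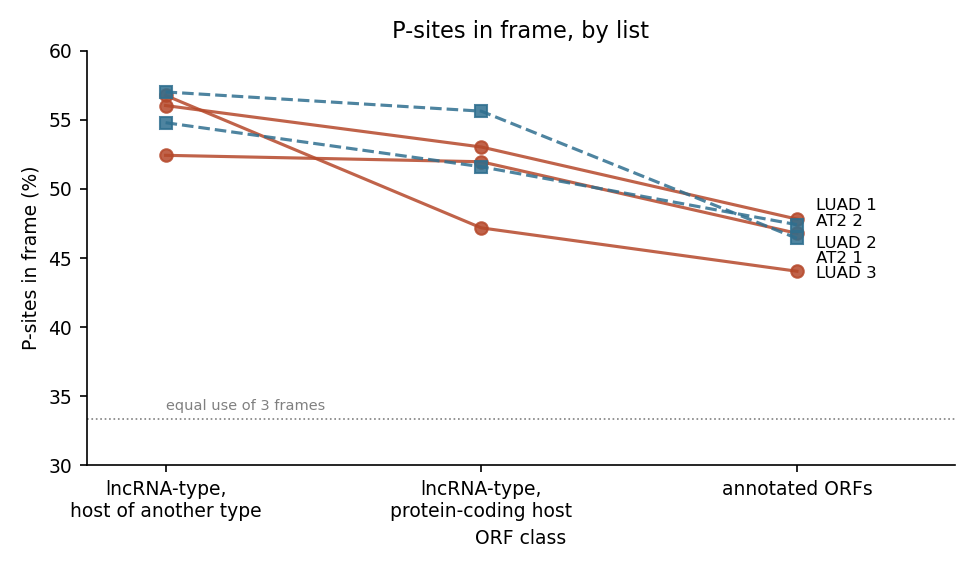
Percent of P-sites in the ORF's own frame for each list, by class of ORF, with a line for each list (LUAD solid with circles, AT2 dashed with squares) and a dotted line at equal use of the 3 frames. In all 5 lists both lncRNA-type classes lie above annotated ORFs, which run from 44.0% to 47.8%.

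The ORFs with the most P-sites lay in Actb, Krt19, Rack1, Tkt, Tpm1 and Hspa4. The first was an ORF of 125 codons in Actb, the gene of cytoplasmic beta-actin, at chr5:142905136-142905686 on the minus strand (mm10). It had 5108, 1959 and 1912 in-frame P-sites in LUAD lists 1, 2 and 3 and 516 in AT2 list 2, and was not in AT2 list 1. It began at the annotated start and ended elsewhere, and 96.8% of its residues were shared with beta-actin. Residues were also shared with Acta1, Actr1a and Actr1b, and whether its footprints can be told apart from theirs was not tested. In all, 229 of the 1158 ORFs in protein-coding genes shared residues with an annotated ORF of another gene.

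The second was an ORF of 199 codons in Krt19, a keratin of simple epithelia, at chr11:100140913-100142108 on the minus strand. It had 2199, 200 and 244 in-frame P-sites in the LUAD lists and 213 in AT2 list 2. It ended at the annotated stop and all of its residues were those of keratin 19. Rack1, which encodes a scaffold protein of the small ribosomal subunit and hosts snoRNAs in its introns, held 3 ORFs. The longest, of 247 codons at chr11:48802202-48806045, had 1238, 217 and 248 P-sites in the LUAD lists and was in neither AT2 list. Tkt (transketolase, an enzyme of the pentose phosphate pathway) had an ORF of 590 codons with 778, 296 and 269 P-sites in LUAD and 138 in AT2 list 2. Tpm1 (tropomyosin, which binds actin filaments) had one of 178 codons with 766, 176 and 179 in LUAD and 170 in AT2 list 2, and Hspa4 (a chaperone of the heat shock protein family) one of 701 codons with 832, 115 and 179 in LUAD and 99 in AT2 list 2. None of these 6 was in AT2 list 1, the list with the fewest P-sites.

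ORFs found in all 3 LUAD lists and neither AT2 list with the most P-sites were, after Rack1, those of Myof, App and Gsto1. The ORF in Myof, which encodes a membrane repair protein, had 921 codons and 706, 196 and 201 P-sites in the LUAD lists. That in App, the amyloid precursor protein gene, had 640 codons and 585, 217 and 293. That in Gsto1, a glutathione S-transferase gene, had 126 codons, all shared with the annotated protein, and 661, 184 and 189. ORFs in both AT2 lists and no LUAD list had little support. Taf15, an RNA-binding protein gene, had one of 163 codons with 21 and 9 P-sites. Emc4, a subunit of the endoplasmic reticulum membrane complex, had one of 71 codons with 23 and 6. Cep290, a gene of the ciliary transition zone, had one of 808 codons with 12 and 7, and Mbnl3, a splicing regulator, one of 271 codons with 11 and 7. By tissue, 857 of the ORFs in protein-coding genes were in LUAD lists only, 127 in AT2 lists only and 174 in both. The LUAD lists were deeper, and the part of depth in these numbers was not tested. The same split over all listed ORFs is not given here.

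The length range in protein-coding genes ran from 20 codons in Hnrnph1 to 2123 codons in Muc4. Muc4 encodes a membrane mucin, and its longest ORF, which ended at the annotated stop and shared all its residues, had 29 P-sites in LUAD list 2 and 6 in AT2 list 1. Hnrnph1, a splicing regulator with many isoforms, held 11 of the ORFs, with 991 in-frame P-sites in all. The next most were 6 in Slc9a8 and 5 each in Aqr, Atp6v0a1, Dpp7 and Dcp1a. ORFs of 1 gene share exons, so these are not independent sites.

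The 50 ORFs that shared no stretch with the annotated protein of their gene were short and mostly seen once. Examples from the highest P-site support downward were chosen after their values were seen. In Yme1l1, a protease of the mitochondrial inner membrane, an ORF of 35 codons at chr2:23160220-23160327 had 184 in-frame P-sites in LUAD list 1, and 72.2% of its P-sites were in frame. In the same gene an ORF of 296 codons that began at the annotated start had 224 P-sites in frame, which was 37.6% of its P-sites. Cox5b, a subunit of cytochrome c oxidase, had an ORF of 78 codons with 62 P-sites in LUAD list 1. The Mmadhc ORF of 128 codons, whose start is printed above, had 30 P-sites in LUAD list 1 and 16 in LUAD list 3. Pooled over the 50 ORFs, 61.2% of P-sites were in frame, against 52.1% for those that shared residues. Where the host had no annotated ORF listed, the most P-sites were 119 for an ORF of 106 codons in Uap1, an enzyme of amino sugar synthesis, and 115 in Psme3, a proteasome activator. Both were in LUAD list 1 only.

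Among the 100 ORFs in genes of other types, 2 of the 3 with the most P-sites overlapped a histone gene. Gm42743 had an ORF of 120 codons at chr3:96269752-96277884 on the plus strand, with 344, 78 and 138 in-frame P-sites in LUAD lists 1, 2 and 3 and 26 in AT2 list 2. It overlapped the span of the histone gene H2bc18 on the same strand and shared residues with annotated ORFs of 11 histone genes, all of the Hist1h2b and Hist2h2b families, and whether its footprints can be told apart from theirs was not tested. Gm20628 had an ORF of 33 codons at chr3:96269871-96269972 on the minus strand, opposite H2bc18 and within the span of the Gm42743 ORF. It had 260 P-sites in LUAD list 1 and 28 in AT2 list 1. Gm26917 had an ORF of 154 codons at chr17:39843730-39844194 with 121 P-sites in LUAD list 1, of which the in-frame part was 41.7% of all. It ended 2159 bases before Rn18s-rs5, a pseudogene related to ribosomal RNA. Of the 100 ORFs, 10 shared residues with an annotated ORF of another gene. The longest of the 100, of 847 codons in the schlafen pseudogene Slfn10-ps, shared residues with Slfn9 and had 42 P-sites in LUAD list 1.

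AI506816 had an ORF of 645 codons at chr5:23701146-23703083 on the minus strand, with 96 P-sites in LUAD list 2 and 23 in AT2 list 2, and 56.9% of its P-sites were in frame. RefSeq places the protein-coding gene Gm42226 over it on the same strand. The others on the 100-ORF list were mostly seen in a single list, as were 92 of the 100. By tissue, 71 were in LUAD lists only, 22 in AT2 lists only and 7 in both. Here too the LUAD lists were deeper, and no split over all listed ORFs is set beside these numbers. A single list cannot show whether the frame preference recurs.

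Malat1, an abundant nuclear lncRNA of mammals, held 11 of the 100 ORFs, more than any other gene of its class. Their lengths ran from 20 to 64 codons and their starts spread over 4019 bases. Together they had 340 P-sites in frame and 296 in the other frames, so 53.5% were in frame. Of the 11, 6 were in LUAD lists alone, 4 in AT2 lists alone, and 1 in both. The 1 in both, of 33 codons at chr19:5800367-5800468 on the minus strand, had 17 P-sites in LUAD list 3 and 60 in AT2 list 1. The best supported was 1 of the 2 shortest, with 20 codons at chr19:5798336-5798398 and 97 in-frame P-sites in LUAD list 1. The P-sites were thus spread over many short frames. Of the 11, 10 were in a single list, as were 92 of the 100 ORFs in genes of other types. Of all 100 ORFs in genes of other types, 7 were in lists of both tissues. Neat1, the lncRNA that scaffolds nuclear paraspeckles, held 2 ORFs, both in LUAD list 1 only. The one of 79 codons had 96 P-sites in frame and 103 in another frame, so 42.5% of its P-sites were in frame. The other, of 42 codons, had 13 in frame, which was 76.5%.

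**Figure D4:**
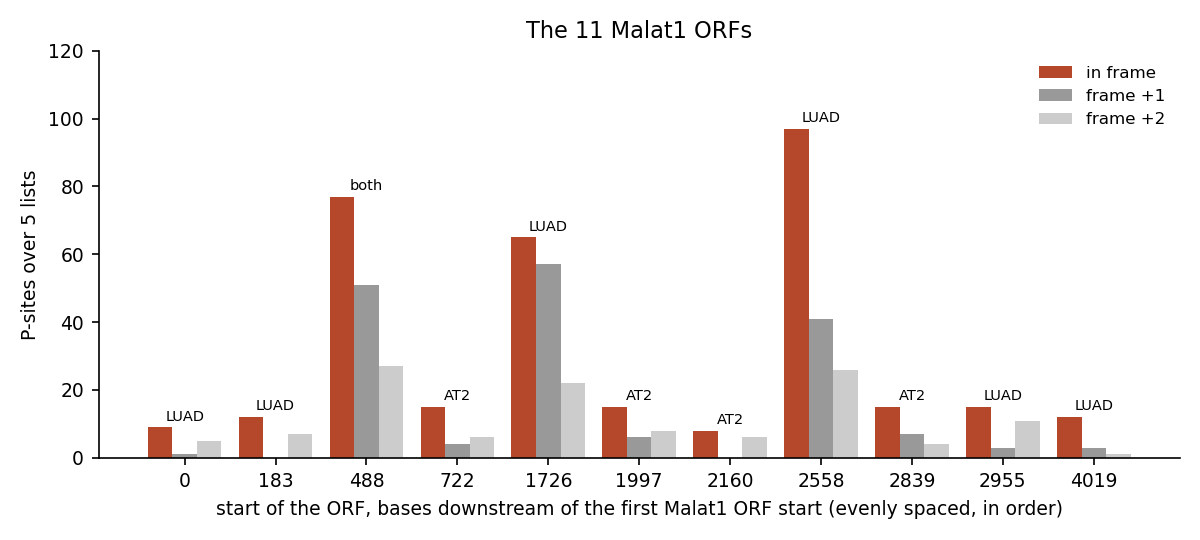
P-sites of the 11 Malat1 ORFs by reading frame, summed over the 5 lists, with the ORFs in order of their start and spaced evenly. The label over each ORF gives the tissue of the lists that hold it: 6 are from LUAD lists, 4 from AT2 lists and 1 is in both.

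Lists of genes with a known place in this biology were checked for hosts. Of 57 snoRNA host genes, whose introns release small nucleolar RNAs, 5 carried 7 of the ORFs: Eef1b2 (a translation elongation factor), Nop58 (a core snoRNA-binding protein), Rack1 with 3, Snhg3 and Snhg6. The Snhg3 ORF of 43 codons had 19 of its P-sites in frame, or 82.6%, in LUAD list 1, and the Snhg6 ORF of 53 codons had 10 in LUAD list 3. Of 33 well-known lncRNA genes, 5 carried 17 ORFs: Malat1, Neat1, Mirt1, Mir100hg and Morrbid. In Mir100hg, a host of microRNAs, an ORF of 53 codons had 46 P-sites in LUAD list 1, and 79.3% were in frame. The Mirt1 ORFs of 155 and 49 codons had 13 and 16 P-sites in LUAD list 1, and the Morrbid ORF of 43 codons had 6 in LUAD list 3. None of 16 genes known for small proteins that were once annotated as noncoding carried one. An ORF listed as annotated cannot enter the class, so this absence does not show whether those small proteins were translated here.

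Many ORFs in genes of other types lay opposite a protein-coding gene. By RefSeq gene spans on mm10, 60 of the 100 overlapped a protein-coding gene on the opposite strand and none on the same strand. Another 12 overlapped one on the same strand and 27 none, and for 1 the strand of the neighbour was not known. Among the 12, the ORFs of D930007J09Rik, Gm26648, Gm43809 and Gm16163 also lay opposite another protein-coding gene. The 60 opposite a gene alone held 44.6% of the in-frame P-sites of the 100, the 12 on the same strand 28.8% and those with no overlap 26.2%. Any of the 100 could add a partner gene on the opposite strand. Of the 55 such genes, 44 (80.0%) had an annotated ORF listed, against 6687 of 21900 RefSeq protein-coding genes (30.5%). The second share counts genes whether or not they were expressed here, and gene spans include introns. Whether P-sites of a partner gene were counted for the ORF was not tested. No source used here gives the strand setting of the P-site counting, and without strand the P-sites of a gene and its antisense partner cannot be told apart. Gm15318, opposite Tff1 (a secreted trefoil peptide), had an ORF of 112 codons with 82 in-frame P-sites in LUAD list 1, 89.1% of all. Gm15886, opposite Hipk1 (a nuclear kinase), had one of 128 codons in 3 lists, with 42 and 16 in LUAD lists 1 and 3 and 6 in AT2 list 2. Gm26590, opposite Chd8 (a chromatin remodeller), had one of 53 codons with 55 P-sites in LUAD list 1, and 80.9% were in frame.

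The transcripts that carry the ORFs were then followed in the footprint and RNA tables, which give estimated counts for 118489 transcripts. These tables held 1140 of the 1250 lncRNA-type transcripts, 1004 of them with an ORF that shares residues, 132 with none, and 4 of the 98 in genes of other types. Those 4 were AC154328.1, Gm10642, Rps4l and Slfn10-ps, so Malat1 and Neat1 were not measured there. A count of at least 1 was found for 623 to 756 of the transcripts in LUAD footprint libraries and 459 to 505 in AT2 footprint libraries, and for 526 to 557 in LUAD RNA and 364 to 412 in AT2 RNA libraries. The counts are kallisto's division of reads among isoforms that share exons, so the level of 1 isoform rests on the reads that distinguish it. Unlike those of the markers, the CPM of single transcripts are counts per 1 M of the library size after edgeR's TMM scaling. For AT2 footprint library 1 the scaled size was 1700235, against a total of 3030290 counts.

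The class took a larger share of footprints than of RNA. The transcripts held 1.52 ± 0.0304% of footprint counts and 0.472 ± 0.0143% of RNA counts in LUAD (SD, n = 4 each), and 1.53 ± 0.648% of footprint counts and 0.498 ± 0.0364% of RNA counts in AT2 (n = 3 each). AT2 footprint library 1 had 0.789% and the other two 1.99% and 1.81%. Without the 10 transcripts with the most footprints, the means were 1.04% and 0.385% in LUAD and 0.855% and 0.388% in AT2. Their share within host genes was taken over 826 genes and 1062 of these transcripts. The host gene counts cover only transcripts that the ORF lists pair with the gene. This share was 13.9 ± 0.311% of footprint counts and 4.34 ± 0.253% of RNA counts in LUAD, and 15.8 ± 1.18% and 4.57 ± 0.170% in AT2. No test is given, because the ORFs had been listed for their footprints.

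Some isoforms had footprints and no RNA counts at all. Of the 477 transcripts with at least 20 footprint counts on average in LUAD, 117 (24.5%) had 0 RNA counts in every LUAD RNA library, and in AT2 the number was 102 of 302 (33.8%). Among other transcripts with a listed ORF the shares were 9.37% of 12431 in LUAD and 12.2% of 8594 in AT2, and among all transcripts outside the class they were 15.2% and 18.2%. The App transcript ENSMUST00000227990.1 was the most abundant of them. It had 477, 503, 297 and 357 CPM of footprints in LUAD libraries 1 to 4 and 1089.8, 733 and 544 CPM in AT2 libraries 1 to 3, with 0 RNA counts in all 7 RNA libraries. Its difference did not pass the test (log2 change -0.95 ± 0.31 SE, edgeR adjusted p = 0.121). The Actb transcript had 803 to 1837 CPM of footprints in LUAD and 1202 to 1813 CPM in AT2, while its RNA was 0.493 to 9.61 CPM in LUAD and 5.18 to 13.5 CPM in AT2.

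Between the tissues, few of these transcripts changed. Of 461 that passed the filter on low counts, footprints were higher in LUAD than in AT2 for 12 and lower for 11 (edgeR's quasi-likelihood test, with p under 0.05 after Benjamini-Hochberg adjustment over all transcripts). These 23 are 4.99% of those tested, and of all 25939 transcripts tested 7.3% were called, 3.85% higher and 3.45% lower. The median log2 change was 0.09, against 0.16 over all transcripts tested. For RNA, 12 of 449 were higher and 8 lower, which is 4.45%, against 10.1% of all 29481, of which 6.66% were higher and 3.4% lower, with a median log2 change of 0.13 against 0.20 over all. In both assays the share called was below that of all transcripts. In these bulk samples fewer cells of a type and less RNA per cell cannot be told apart.

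The footprint count moved when single libraries were left out, and so did the share called over all transcripts. The count was 36 without AT2 library 1, the one that stood apart, 18 without AT2 library 2 and 6 without AT2 library 3. Of all transcripts 7.21%, 3.21% and 2.17% were called in these fits, against 7.3% with every library. Without LUAD libraries 1, 2, 3 and 4 the count was 6, 8, 4 and 4, and 2.59%, 2.5%, 1.86% and 2.04% of all were called. The RNA count was 9, 11 and 26 without AT2 libraries 1, 2 and 3, and 4.43%, 4.39% and 11.3% of all transcripts were called. Without LUAD libraries 1 to 4 it was 10, 7, 7 and 6, and 6.25%, 5.41%, 4.94% and 4.86% of all were called. With every RNA library the share was 10.1%.

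The largest footprint difference was in Gsto1. Its transcript ENSMUST00000236902.1, which carries the ORF of 126 codons described above, had 283, 461, 356 and 354 CPM in the 4 LUAD libraries and 0 CPM in all 3 AT2 libraries. The groups did not overlap, and the level in LUAD was at least 329.7-fold higher, with the AT2 level set to the floor of 3 counts per library (edgeR adjusted p = 0.00185). All 7 fits that left out a library kept the call. Over all paired transcripts of Gsto1 the footprints did not change by the test (log2 change -0.19 ± 0.40 SE, adjusted p = 0.784). The isoform took 38.8% of the gene's footprint counts in LUAD. Its RNA was 0, 55.6, 34.1 and 17.1 CPM in LUAD and 2.46, 10.8 and 12.5 CPM in AT2, and the groups overlapped.

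The other 3 transcripts with the largest rise in footprints were also at 0 in AT2. Cdc73, a subunit of the Paf1 transcription complex, had 5.63, 7.32, 12.1 and 11.7 CPM in LUAD and 0 CPM in AT2, at least 8.33-fold higher (edgeR adjusted p = 0.0211). Srp14, a subunit of the signal recognition particle, had 32.3, 24.1, 4.42 and 5.61 CPM in LUAD and 0 CPM in AT2, at least 15.1-fold higher (adjusted p = 0.0403). Vps16, part of the endosomal tethering complexes, had 1.82, 8.79, 8.54 and 4.86 CPM in LUAD and 0 CPM in AT2, at least 5.45-fold higher (adjusted p = 0.0427). RNA of the Vps16 isoform was 0 CPM in every LUAD library and 2.07, 0 and 2.32 CPM in AT2. That of Srp14 was 2.02, 0.123, 1.66 and 0.841 CPM in LUAD and 0 CPM in AT2, and Cdc73 RNA is given below. At the level of the gene, again over its paired transcripts only, none of the 3 changed by the test, with adjusted p = 0.356, 0.757 and 0.150. Leaving out any 1 of the 7 libraries ended the call for Srp14, and leaving out any LUAD library ended that for Cdc73. The Vps16 call was kept in 1 of the 4 such fits in which it was tested, the one without AT2 library 1, and was lost with library set as a term (adjusted p = 0.0533).

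Among those lower in LUAD, Itga6, the integrin alpha 6 subunit that binds laminin, had 0, 0.449, 0.145 and 0.205 CPM of footprints in LUAD and 21.8, 23.1 and 20.1 CPM in AT2 (log2 change -6.54 ± 0.86 SE, edgeR adjusted p = 0.00920). The gene total did not change by the test (adjusted p = 0.731). P3h1, a collagen prolyl hydroxylase, had 0.727, 0.578, 1.59 and 2.05 CPM in LUAD and 57.6, 15.7 and 20.6 CPM in AT2 (-4.62 ± 0.73, adjusted p = 0.0160), and Procr, the protein C receptor, had 8.90, 4.88, 3.04 and 2.26 CPM in LUAD and 9.41, 81.4 and 86.3 CPM in AT2 (-3.65 ± 0.82, adjusted p = 0.0430). For P3h1 and Procr the gene total, which contains the isoform, fell too, with log2 changes of -4.14 and -4.19 (adjusted p = 0.00202 and 0.000181). Tm9sf1, which encodes a multispanning membrane protein, had 1.27, 0.449, 0.217 and 0 CPM in LUAD and 82.9, 12.8 and 8.49 CPM in AT2 (-6.27 ± 1.43, adjusted p = 0.0450), and leaving out any 1 library ended its call. The Itga6 call was kept in all 7 fits that left out a library, the P3h1 call was lost without LUAD library 1 or 3, and the Procr call was kept only without AT2 library 1. With library set as a term the Procr call was lost (adjusted p = 0.0960). RNA of the Itga6 and P3h1 isoforms was 0 CPM in every AT2 library, with LUAD libraries at 0 to 1.20 and 0 to 2.81 CPM. Tm9sf1 RNA was 0 to 0.924 CPM in LUAD and 0 to 0.697 CPM in AT2. Procr RNA was 0 to 2.49 CPM in LUAD and 22.8 to 38.9 CPM in AT2.

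In genes of other types only Rps4l, a gene for a ribosomal protein similar to Rps4x, passed the test. Its transcript had 0 CPM of footprints in all 4 LUAD libraries and 20.6, 3.26 and 11.9 CPM in AT2, so it was at least 41.1-fold lower in LUAD (edgeR adjusted p = 0.0332). Its RNA was 0 CPM in all 4 LUAD libraries and 28.1, 27.8 and 8.59 CPM in AT2, at least 206-fold lower (adjusted p = 0.00870). The RNA call was kept in all 7 fits that left out a library, and the footprint call in 1 of 7. Its ORF of 262 codons was in AT2 list 1 alone, with 6 in-frame P-sites. The gene is close in sequence to Rps4x, so its counts are uncertain.

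The largest RNA differences were in transcripts at 0 in every library of 1 tissue. Tns4, which encodes a focal adhesion protein of the tensin family, had 3.18, 2.37, 4.53 and 6.69 CPM of RNA in LUAD and 0 CPM in AT2, at least 9.91-fold higher (edgeR adjusted p = 0.0280). Its footprints rose as well, with 38.9, 25.1, 46.3 and 42.4 CPM in LUAD and 0, 0 and 2.43 CPM in AT2 (log2 change 5.35 ± 1.17, adjusted p = 0.0396), and the RNA of the gene rose by 10.02 on the log2 scale (adjusted p = 5.00e-06). Yars (tyrosyl-tRNA synthetase), Phpt1 (a protein histidine phosphatase) and Lrrfip2 had 0 CPM of RNA in AT2 and averaged 3.65 ± 0.901, 3.55 ± 1.99 and 3.03 ± 1.33 CPM in LUAD (SD, n = 4). They were at least 8.63-fold, 8.39-fold and 7.16-fold higher (edgeR adjusted p = 0.0278, 0.0355 and 0.0377). The gene RNA of Yars and Phpt1 did not change by the test (adjusted p = 0.458 and 0.120), and Lrrfip2 had no other paired transcript. With library set as a term the Phpt1 and Lrrfip2 calls were lost (adjusted p = 0.0565 and 0.0571). For Tns4, Yars, Phpt1 and Lrrfip2 the call was kept in 1 of 7 fits that left out a library, the one without AT2 library 3.

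Lower RNA in LUAD was found for 2 isoforms of Poc1a, a centriole protein gene. ENSMUST00000188660.6 had 0 CPM in all 4 LUAD libraries and 17.5, 4.71 and 6.97 CPM in AT2, at least 93.2-fold lower (edgeR adjusted p = 0.0190), and ENSMUST00000189325.6 had 1.53, 1.08, 0.302 and 0.481 CPM in LUAD and 5.21, 14.0 and 12.8 CPM in AT2 (log2 change -3.64 ± 0.85, adjusted p = 0.0379). RNA summed over the paired transcripts of Poc1a did not change by the test (adjusted p = 0.730). Derl1, a factor of endoplasmic reticulum-associated degradation, had 6.87, 4.77, 6.84 and 5.97 CPM in LUAD and 25.1, 28.1 and 48.3 CPM in AT2 (-2.47 ± 0.34, adjusted p = 0.00672), and Alas1, the first enzyme of heme synthesis, had 32.2, 42.9, 34.9 and 37.7 CPM in LUAD and 99.6, 73.4 and 67.1 CPM in AT2 (-1.12 ± 0.20, adjusted p = 0.0163). The gene total of both fell too; it contains the isoform, which was 60.1% of the Alas1 gene counts in AT2. The Derl1 call was kept in all 7 fits that left out a library, those of ENSMUST00000188660.6 and Alas1 were lost without AT2 library 1, and that of ENSMUST00000189325.6 was lost in all 7.

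**Figure D5:**
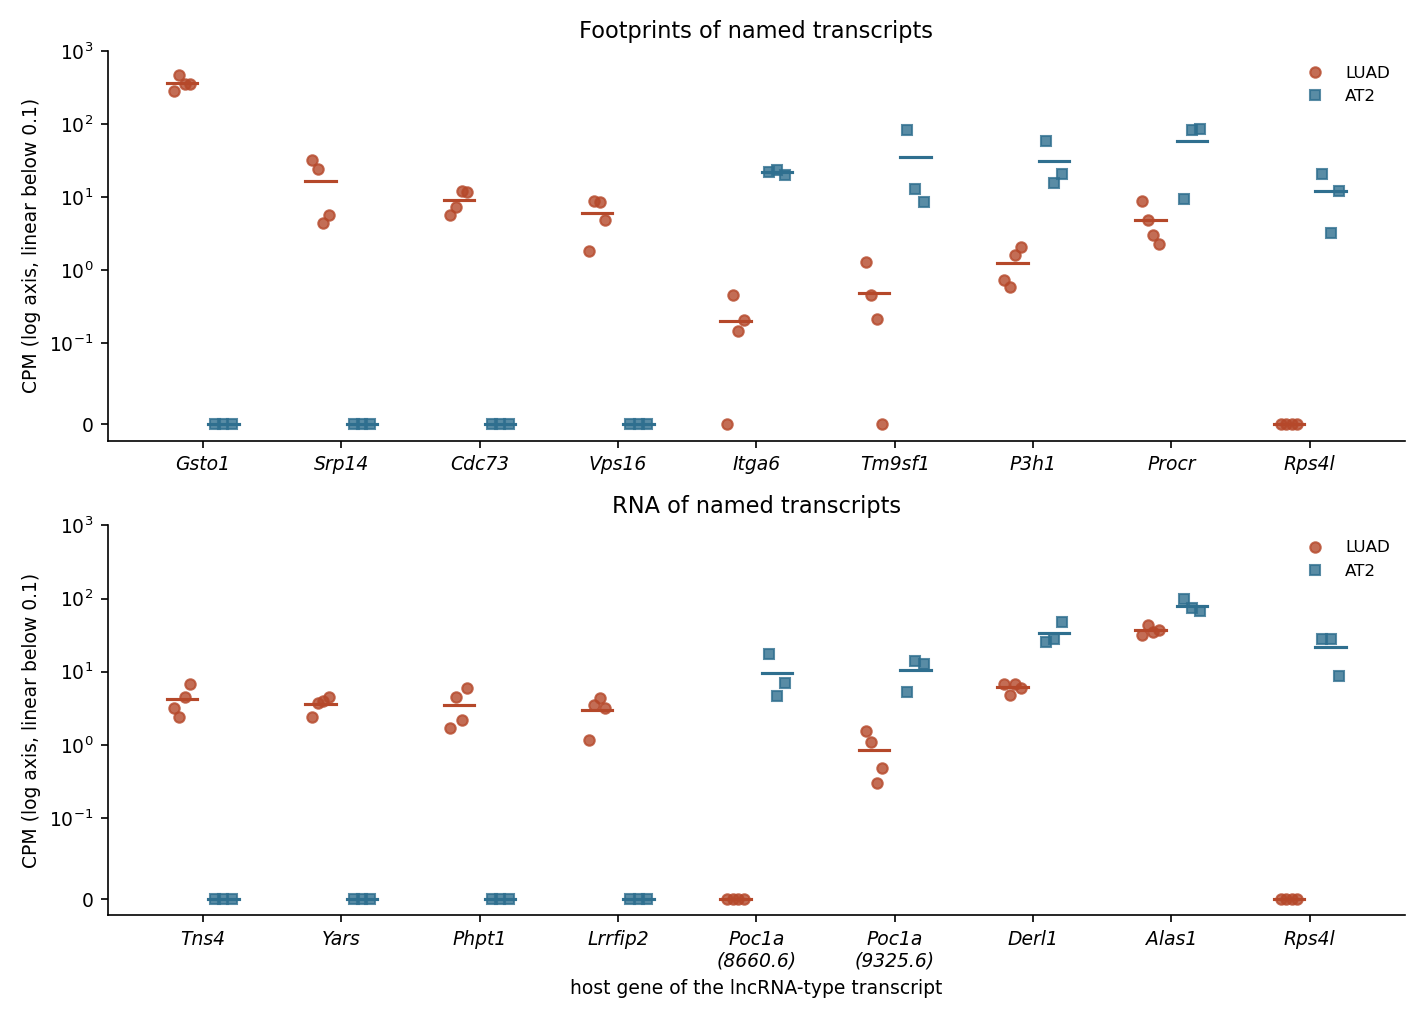
Levels of the named lncRNA-type transcripts in each footprint library (top) and RNA library (bottom), in CPM on a log axis that is linear below 0.1. LUAD libraries are circles left of AT2 libraries (squares), and bars are group means. For Gsto1 the LUAD footprint libraries lie from 283 to 461 CPM and the AT2 libraries at 0.

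Transcripts called in both assays were 4: Tns4, Rps4l, Krt19 and Muc1, the last chosen after its values were seen. The Krt19 isoform, whose ORF was second by P-sites, had 651, 665, 752 and 751 CPM of footprints in LUAD and 1329.8, 3872 and 3143 CPM in AT2 (log2 change -1.98 ± 0.35, edgeR adjusted p = 0.0227). Its RNA was 304 to 373 CPM in LUAD and 414 to 646 CPM in AT2 (-0.73 ± 0.17, adjusted p = 0.0417). Muc1, a membrane mucin gene, rose in footprints by 2.15 ± 0.35 and in RNA by 2.25 ± 0.33 on the log2 scale (adjusted p = 0.0164 and 0.00870). The Muc4 isoform with the longest ORF rose in footprints, with 29.6, 40.8, 7.75 and 6.64 CPM in LUAD and 1.18, 1.09 and 0.485 CPM in AT2 (4.56 ± 0.96, adjusted p = 0.0361). In 7 of the 23 footprint calls and 7 of the 20 RNA calls, one group was at 0 in every library.

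Footprints per RNA were compared by an interaction term between tissue and assay, fitted to all 14 libraries. Of 731 transcripts tested, 1 was higher in LUAD and 2 were lower, or 0.41%, against 0.547% of all 41658, of which 0.358% were higher and 0.19% lower. The Cdc73 isoform was higher (edgeR adjusted p = 0.0217): its footprints were 9.18 ± 3.21 CPM in LUAD and 0 in AT2, while its RNA was 22.6 ± 3.88 CPM in LUAD and 11.9 ± 6.10 CPM in AT2 (SD, n = 4 and 3). The Yars and Phpt1 isoforms were lower (adjusted p = 0.0270 and 0.0312), and both were at 0 in AT2 RNA. Yars footprints averaged 13.5 ± 7.31 CPM in LUAD and 16.7 ± 1.75 CPM in AT2, and Phpt1 footprints averaged 57.8 ± 9.60 CPM in LUAD and 37.8 ± 20.6 CPM in AT2. Each of the 3 rests on 1 tissue at 0 in 1 assay. None of the class was called without AT2 footprint library 3, where 0.299% of all transcripts were called. Without AT2 footprint library 1, 8 of the class and 1.05% of all were called.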

How the data were processed

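Footprints and RNA were measured in LUAD and AT2 organoids of C57BL/6 mice. Per the file headers, the authors' ORF lists give the counts of P-sites in each reading frame, an RPKM value and a combined p-value for each ORF on mm10; no source used here names the ORF caller or its strand setting. The authors' deposited footprint and RNA tables give estimated counts and TPM per transcript, made with kallisto per the submitters' processing notes. The labels of the RNA libraries repeat the footprint protocol, so their own preparation is unknown here.

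ORFs were joined across lists by identifier and called sharing where at least 12 consecutive residues also occur in a listed annotated ORF of the same gene. Start contexts and gene spans came from RefSeq tables for GRCm38.p6. Transcripts could be paired with genes only through the ORF lists. Estimated counts were rounded and tested with edgeR 4.0.16 (R 4.3.3), with TMM scaling, its filter on low counts and the quasi-likelihood test, Benjamini-Hochberg adjusted over all transcripts tested; footprints per RNA were the interaction of tissue and assay. Gene totals, summed over the paired transcripts only, were fitted the same way. The test scripts were tested on simulated data. Alternatives were DESeq2 1.42.0, its size factors, no filter, a replicate block, sums per gene and leaving out each library. Lists were compared by exact permutation over lists, and classes of ORFs by exact sign-flip over the 5 lists, a test chosen after seeing the data. The floor of 3 counts covers only counting error.

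The members and lists were chosen with earlier results of these data known. Named ORFs were, in protein-coding and in other genes, the 6 with the most in-frame P-sites, those of all 3 LUAD or both AT2 lists alone (4 each), and the longest and shortest. Named transcripts were, per assay, the 4 with the largest change in each direction with adjusted p under 0.05 and at least 20 counts on average in the higher group. Members of the gene lists were named too. Genes named for start contexts, lack of sharing, antisense overlap, or number of ORFs, and App, Actb, Krt19, Muc1 and Muc4 transcripts, were chosen after their values were seen.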

Additional observations from a re-analysis of the deposited data

Results flagged for a closer look

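In LUAD RNA library 1 the lncRNA-type transcripts held 0.450% of all counts, against 0.480%, 0.478% and 0.478% in LUAD RNA libraries 2, 3 and 4. The first value lies apart from the other 3 by more than Dixon's 95% limit for 4 samples. It was the only one of 22 groups of values tested this way that did, and chance marks about 1 in 20.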

How the results depend on the processing

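The mean difference between LUAD and AT2 lists in the share of ORFs, 0.149 percentage points, changed sign under several settings. It was -0.807 with p under 0.01, -0.696 with p under 0.001, -0.112 for genes of other types only and -0.214 without ORFs that share residues, and from -0.470 without AT2 list 2 to 0.769 without AT2 list 1 when 1 list was left out. Without LUAD list 1 it was -0.0326. The difference in the share of P-sites, -0.0836 points, was 0.00991 with p under 0.001, 0.241 with at least 10 P-sites and 0.0689 for protein-coding genes only, and ran from -0.366 to 0.199 with 1 list left out. The difference in number, 298, ran from 162.5 to 392.5 with 1 list left out, and was 54.8 with p under 0.001, 37.3 without ORFs that share residues and 12.8 for genes of other types only. For footprints, the 23 calls became 81 with DESeq2's test (19.5% of all transcripts were called) and 44 with library set as a term (13.2%). They became 4 to 36 with 1 library left out (1.86% to 7.21% of all). Sums per gene count genes rather than transcripts, and 178 of 838 host genes were called, against 21.2% of all genes tested. For RNA, the 20 calls became 58 with DESeq2's test (20.2% of all transcripts) and 9 within library set 1 (8.23%). They became 6 to 26 with 1 library left out (4.39% to 11.3% of all). Sums per gene called 308 of 854 host genes, against 37% of all genes tested. DESeq2's size factors gave 9 higher and 10 lower RNA calls, against 12 and 8. For footprints per RNA, the 3 calls became 61 with DESeq2's test (6.46% of all transcripts) and 0 to 8 with 1 library left out (0.299% to 1.05%). Sums per gene called 7 of 867 host genes, against 0.72% of all genes tested. The causes were not tested. Fits by library set, and the one without sharing ORFs, were chosen after seeing the data.

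A replicate block on the replicate numbers gave 0 footprint calls (54 at an unadjusted p under 0.05), 2 RNA calls and 0 calls per RNA (85 at an unadjusted p under 0.05). Over all transcripts the block called 0%, 3.13% and 0.142%. Correlations of same-numbered libraries ran from -0.242 to 0.277 for footprints and from 0.0754 to 0.138 for RNA, so the numbers were not taken to pair the samples. LUAD and AT2 libraries of 1 library set correlated at 0.161 to 0.343 for footprints, against -0.368 to -0.119 across sets. For RNA they correlated at 0.0631 to 0.138, against -0.122 to -0.0552 across sets. The grouping itself was made from how these libraries differ, so the correlations describe it and do not test it. With set as a term 17 of 21 named calls were kept, and those of Vps16, Procr, Phpt1 and Lrrfip2 were lost. All 21 were kept with DESeq2's test or its size factors, 15 without the filter and 0 with the replicate block. Within 1 set alone, 2 of 9 RNA calls were kept in set 1 and 4 of 9 footprint calls in set 2. With 1 library left out, named calls were kept in 83 fits and lost in 82. Named transcript calls never changed direction.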
